A study of Phaseolus vulgaris with 12 samples.

Results

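MSTRG.9850 is the locus of Phvul.008G259900, a common bean (Phaseolus vulgaris) gene described as glutamine-dependent asparagine synthase 1. It is 1 of the 22542 loci in the deposited expression table and was picked by its identifier for its large differences between groups. Its own values are therefore described here and carry no test. Asparagine synthetase moves the amide nitrogen of glutamine onto aspartate and so makes asparagine, an amino acid rich in nitrogen that legumes use to store and transport it. In Arabidopsis the related gene ASN1 is also called DIN6, for dark-inducible, and its transcript is repressed by light and sugar. Arabidopsis ASN2 responds to light in the opposite direction. The table's GO terms place MSTRG.9850 in asparagine synthesis, glutamine metabolism and the response to absence of light.

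RNA was sequenced from true leaves of 2 bean varieties, the cold-sensitive 093 and the cold-tolerant 120. Each variety has 3 control libraries from plants kept on a culture rack and 3 cold libraries from plants held in an incubator at 4 °C for 3 days. Both places had 12 h of light and 12 h of darkness, so all 12 libraries share that light cycle, and the labels give no time of day for sampling. Cold and place cannot be told apart. Whether the libraries of 1 group represent different pots or plants is not stated, and the spread behind each p-value is that between libraries, which may be technical. These are bulk leaf samples, in which fewer cells of a type and less RNA per cell cannot be told apart.

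Levels are FPKM. The unit divides the fragments of a locus by transcript length and by the library's mapped fragments, which allows levels to be compared between loci. Their sum lay between 313320 and 350100 per library. Photosynthetic transcripts, which mark leaf tissue, were abundant. The 3 rubisco activase loci summed to between 12240 and 18268 FPKM in the 6 control libraries. Under cold that sum was 2827 to 2990 FPKM in 093 and 1220 to 1475 FPKM in 120, and the 17 light-harvesting loci went from 5453 to 11419 FPKM in control libraries to 1230 to 1485 FPKM in cold ones. These leaf markers were thus lower in the same libraries as MSTRG.9850, and their part in its values was not tested. Words for leghemoglobin and for vicilin, legumin or phaseolin matched 0 loci. The 39 loci matched by "seed storage" summed to 20.1 to 257 FPKM in 093 control, 96.2 to 136.5 in 093 cold, 12.8 to 18.8 in 120 control and 143 to 236 in 120 cold. The 89 loci matched by "nodulin", a word that also names transporter families of other tissues, summed to between 603 and 898 FPKM.

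120 cold library 3 stood apart from its group, though other groups also held a library less like the rest. 093 control library 3 correlated with 093 control libraries 1 and 2 at r = 0.948 and 0.948, beside 0.966 between those. 120 control library 2 correlated with 120 control libraries 1 and 3 at 0.956 and 0.958, beside 0.974 between those. On log2(FPKM + 1), 120 cold library 3 correlated with 120 cold libraries 1 and 2 at r = 0.950 and 0.940 across tested loci, while those libraries correlated with each other at 0.974. Of the 6825 loci called between 120 cold and 120 control, library 3 was the cold library nearest to the control for 46.6%, against 24.9% for library 1 and 28.5% for library 2. For MSTRG.9850 and some of the other loci, results are given with and without 120 cold library 3.

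In 093 control leaves MSTRG.9850 stood at 3320, 2101 and 3096 FPKM. In 093 cold leaves it stood at 227, 220.5 and 236 FPKM. Library 2 was the lowest of the control libraries, and even so it lay far above every cold library. The mean went from 2839 ± 649 to 228 ± 8.00 FPKM (SD, n = 3), 12.4-fold lower under cold, with a ratio of 8.89 between the nearest libraries and 15.1 between the farthest.

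In 120 control leaves it stood at 4719, 4911 and 4931 FPKM, and in 120 cold leaves at 28.1, 33.5 and 155 FPKM. The control libraries lay close together, whereas cold library 3 was 5.51 times library 1 and 4.62 times library 2. The mean went from 4854 ± 117 to 72.2 ± 71.7 FPKM (SD, n = 3), 67.2-fold lower under cold, and 157-fold lower when library 3 was left out. Library 3 was also the only 120 cold library that came near the 093 cold level.

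**Figure D1:**
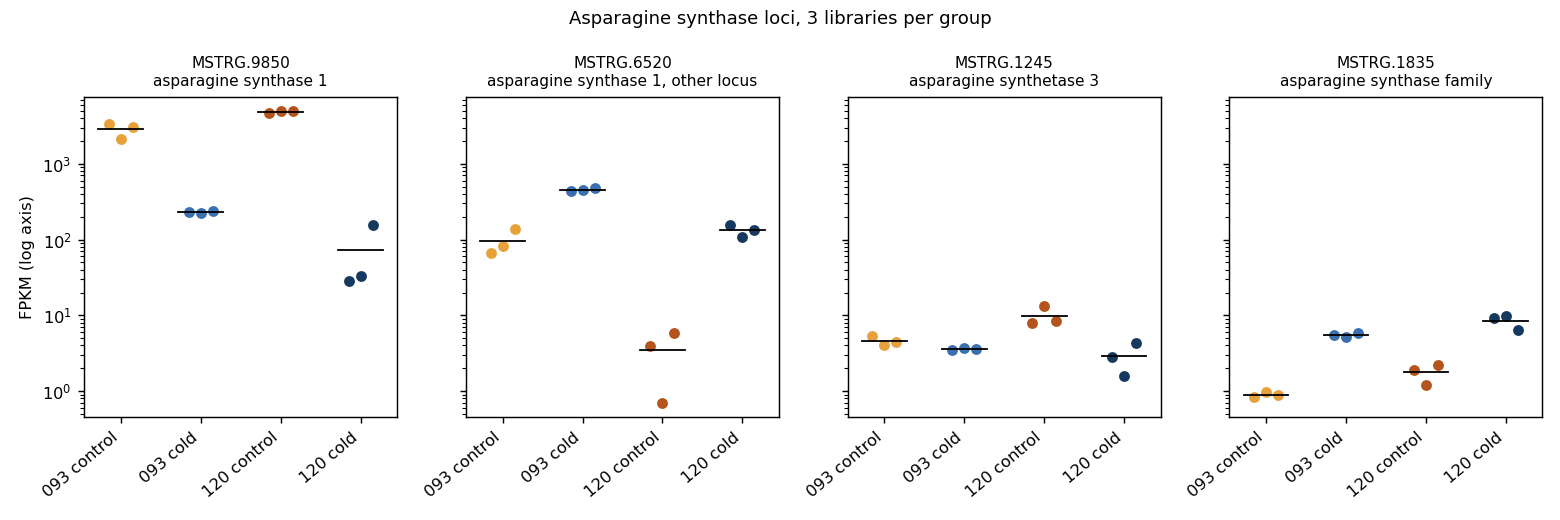
FPKM on a log axis of the 4 loci described as asparagine synthases or synthetases, by group. Points are libraries and black lines are means of 3. MSTRG.9850 is high in both control groups and low in both cold groups, and MSTRG.6520 runs the other way.

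The groups kept 1 order without overlap: 120 control highest, then 093 control, 093 cold and 120 cold. Control and cold libraries did not overlap for 78.3% of tested loci in 093 and 72.8% in 120, so the lack of overlap alone is common in this table. Without cold the mean was 1.71 times higher in 120 than in 093, where 39.7% of tested loci had varieties that did not overlap. Under cold it was 3.16 times higher in 093 than in 120, or 7.40 times without 120 cold library 3, and 53.4% of tested loci did not overlap there. The variety with the higher level thus differed between the conditions. On log2(FPKM + 1), cold minus control was -3.60 in 093 and -6.49 in 120, and 120 minus 093 was 0.80 without cold and -2.09 under cold. The difference between the cold differences, 120 minus 093, was -2.89, and -3.65 without 120 cold library 3.

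MSTRG.9850 was among the most abundant transcripts of uncooled leaves. Ranked by FPKM it was number 6, 11 and 7 in the 093 control libraries and number 3, 2 and 2 in the 120 control libraries, where it held 1.41% of all summed FPKM. In 093 cold leaves it ranked 166, 179 and 165. In 120 cold leaves it ranked 2683, 2091 and 285, and library 3 again stood apart. Among the 14716 loci that reached 1 FPKM in 3 or more libraries, its cold difference was number 6 from the lowest in 120 and number 96 in 093. The locus was picked for such values, so these ranks describe it and test nothing.

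A different locus with the same description, MSTRG.6520 (Phvul.006G069300), rose under cold in both varieties. It carries the same GO terms, including response to absence of light, which the remaining synthetase loci lack. In 093 it stood at 65.7, 81.1 and 138 FPKM in control libraries and at 439.5, 453 and 477 FPKM in cold ones. In 120 it stood at 3.93, 0.705 and 5.92 FPKM in control libraries and at 156, 108 and 133 FPKM in cold ones. In both varieties every cold library lay above every control library. The means went from 95.1 ± 38.4 to 456 ± 18.7 FPKM in 093, 4.80-fold higher, and from 3.52 ± 2.63 to 132 ± 24.2 FPKM in 120, 37.6-fold higher (SD, n = 3).

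Limma with Benjamini-Hochberg adjustment over all 14716 tested loci called MSTRG.6520 in all 5 contrasts; a call needs an adjusted p under 0.05 and a log2 change of at least 1 in size. The log2 change was 2.32 (SE 0.43, adjusted p = 0.0004) in 093 and 5.09 (SE 0.43, adjusted p = 6.8e-07) in 120. The response was larger in 120 by 2.77 (SE 0.60, adjusted p = 0.0055). Without 120 cold library 3 the 120 response was 5.08 and the difference 2.75. Without cold it was lower in 120 than in 093, by a log2 difference of -4.56 (adjusted p = 1.6e-05), the opposite order to MSTRG.9850. Under cold it was also lower in 120, at -1.80 (adjusted p = 0.0073). By mean level, 093 cold came first, followed by 120 cold, 093 control and 120 control, and the libraries of 120 cold and 093 control overlapped.

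The cold levels of both loci summed to less than the control level of MSTRG.9850 alone. The sum went from 2934 ± 655 to 685 ± 24.9 FPKM in 093, 4.29-fold lower, and from 4857 ± 117 to 204 ± 75.2 FPKM in 120, 23.8-fold lower. MSTRG.6520 made up 1.94%, 3.72% and 4.28% of that sum in 093 control and 65.9%, 67.3% and 66.8% in 093 cold. In 120 it made up 0.0831%, 0.0143% and 0.120% in control libraries and 84.7%, 76.3% and 46.1% in cold ones. The share was higher in every cold library than in every control library, and lowest among the cold ones in 120 cold library 3. How reads that match both loci were assigned is not given in the sources used here, so the split of the sum between the loci is uncertain by that amount.

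**Figure D2:**
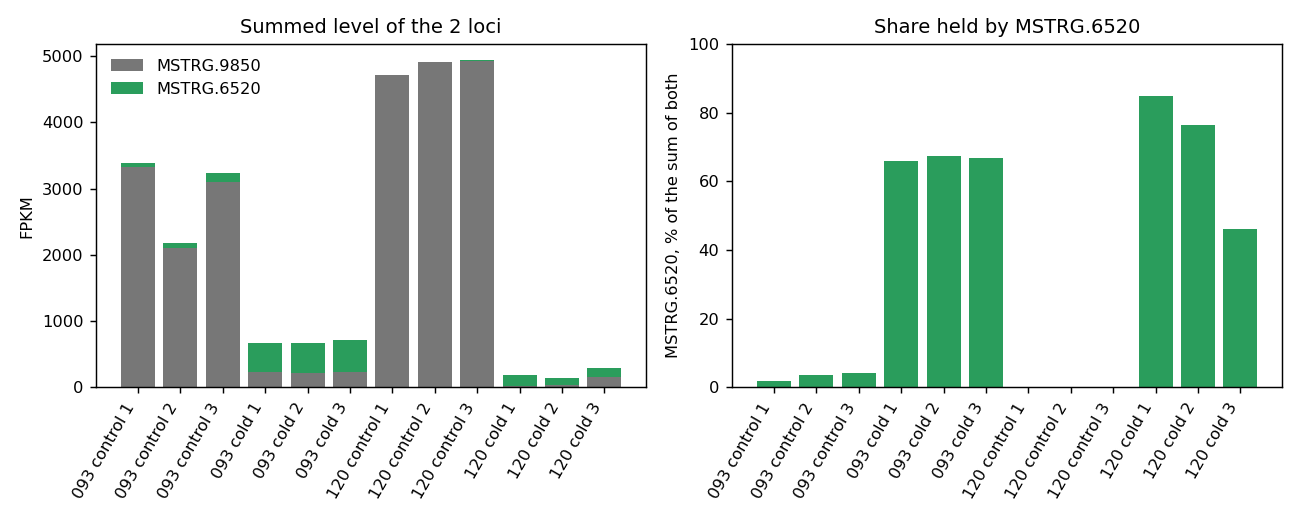
Left, FPKM of MSTRG.9850 and MSTRG.6520 stacked for each library. Right, the percent of that sum held by MSTRG.6520. The stacks are tall and almost wholly MSTRG.9850 in the control libraries and short in the cold libraries, where MSTRG.6520 holds between 46.1% and 84.7%.

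Both other loci of the family were expressed at far lower levels. Asparagine synthetase 3 (MSTRG.1245, Phvul.001G252200) stood at 5.38, 4.01 and 4.43 FPKM in 093 control, 3.52, 3.71 and 3.64 in 093 cold, 7.80, 13.5 and 8.47 in 120 control and 2.81, 1.60 and 4.27 in 120 cold. It fell in 120 by 1.51 on the log2 scale (SE 0.25, limma adjusted p = 0.00019), while its change of -0.27 in 093 was not called (adjusted p = 0.35). The difference of the responses was called at -1.24 (adjusted p = 0.021), but not with median-ratio scaling or without 120 cold library 2, where it was -0.98 in both. An asparagine synthase family locus (MSTRG.1835, Phvul.002G101900) stood at 0.838, 0.965 and 0.898 FPKM in 093 control and 5.50, 5.21 and 5.90 in 093 cold. In 120 it stood at 1.89, 1.20 and 2.23 FPKM in control and 9.28, 9.69 and 6.38 in cold libraries. It rose by 1.78 in 093 (adjusted p = 3.1e-06) and by 1.77 in 120 (adjusted p = 3.5e-06) on the log2 scale. Of the 4 loci together, MSTRG.9850 held between 95.6% and 99.7% of the FPKM in control libraries. It held 32.3% to 33.6% in 093 cold and 14.3%, 22.0% and 51.9% in the 120 cold libraries.

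Asparaginases, which release the amide nitrogen of asparagine again, were found through GO terms, because "asparaginase" matched 0 descriptions; these 4 loci were looked up after their values had been seen and carry no test. The most abundant, MSTRG.141 (Phvul.001G025000), stood at 459.6, 314 and 384 FPKM in 093 control and at 7.16, 7.57 and 8.19 in 093 cold. In 120 it stood at 739, 1045 and 971 FPKM in control and at 4.73, 7.28 and 7.59 in cold libraries. As for MSTRG.9850, the 120 control libraries were the highest and no cold library came near a control one. Of the rest, MSTRG.5494 averaged 12.9 and 3.07 FPKM in 093 control and cold and 7.89 and 2.89 in 120. MSTRG.3940 averaged 8.33 and 3.96 FPKM in 093 control and cold and 7.96 and 4.97 in 120. Phvul.009G067800 stayed at or under 2.69 FPKM in every library.

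The genes around asparagine were then taken as 1 list matched by words in the descriptions, covering synthesis, nitrate use, ammonium assimilation, aspartate supply, ureides and amino acid transport, without MSTRG.9850. Of 144 loci, 105 were tested. In 093, 36 rose and 22 fell, where 33% of all tested loci rose and 15.2% fell. In 120, 26 rose and 28 fell, where 27.8% rose and 18.6% fell. The list's median log2 change was 0.32 in 093 and -0.08 in 120, beside 0.43 and 0.18 over all tested loci. Any call in either direction was made for 55.2% of the tested members in 093 and 51.4% in 120, beside 48.2% and 46.4% of all tested loci. Scaling changed the balance in 093, where 30 members rose and 35 fell with median-ratio scaling and also with quantile normalization. Each of these moved the median of all loci in 093 by -0.43 on the log2 scale. Of the 105, 18 had passed the filter on low values through cold libraries alone and 4 through control libraries alone. The filter itself favours a difference in such a locus, so counts describe the tested members and support no direction. Most groups of the list are small, and a group whose share lies near that of all tested loci shows nothing particular to it.

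The cold response of the list differed between varieties for 29 members, 7 higher and 22 lower in 120, beside 6.5% and 13.1% of all tested loci, or 19.6% in either direction. Median-ratio scaling gave 14 and 17, and quantile normalization 11 and 17. Under cold, 6 members were higher and 20 lower in 120 than in 093, beside 5.62% and 7.03% of all loci, and median-ratio scaling gave 8 and 14. Without cold, 7 were higher and 8 lower, beside 6.34% and 4.44%, while median-ratio scaling gave 5 and 10 and a pseudocount of 0.1 gave 13 and 10. For 32 of the 54 members called in 120 (59.3%), cold library 3 was the one nearest to the control, beside 46.6% of all loci called in 120.

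**Figure D3:**
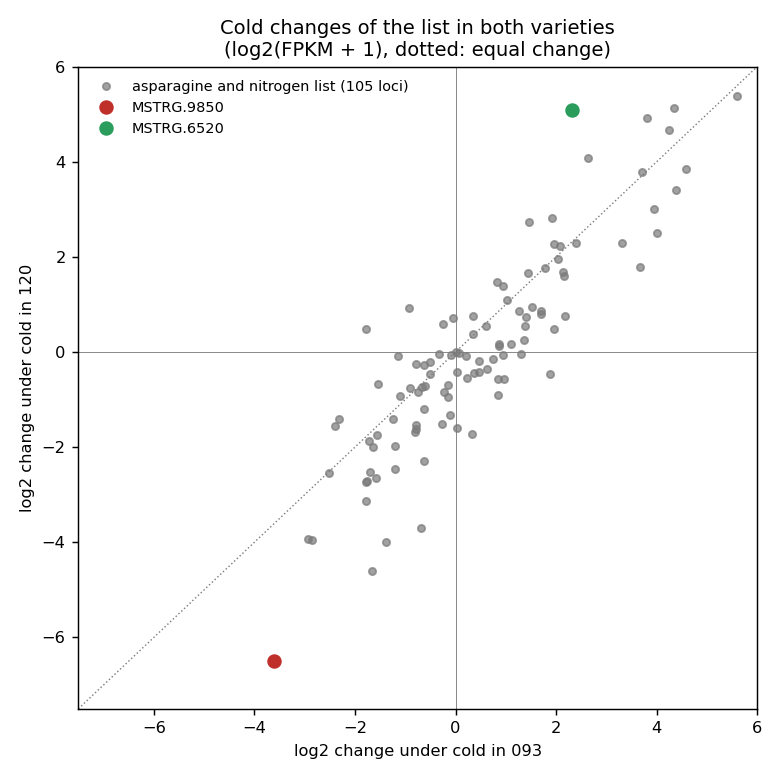
Change under cold on log2(FPKM + 1) in 093 (x axis) and 120 (y axis) for the 105 tested list members (grey), MSTRG.9850 (red) and MSTRG.6520 (green); the dotted line marks equal change. MSTRG.9850 lies at the lower left (-3.60, -6.49) and MSTRG.6520 at the upper right (2.32, 5.09), both farther from 0 in 120.

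Nitrate and nitrite reductase make ammonium from nitrate in the leaf. Nitrite reductase 1 (MSTRG.4507) stood at 379, 286 and 355 FPKM in 093 control and at 104, 105 and 112 in 093 cold. In 120 it stood at 367, 444 and 391 FPKM in control and at 6.62, 7.11 and 70.5 in cold libraries. As with MSTRG.9850, 120 cold libraries 1 and 2 were the lowest of all and library 3 lay between them and 093 cold. It fell in 120 by 4.61 on the log2 scale (SE 0.64, limma adjusted p = 4.8e-05), or by 5.67 without library 3. Its fall of 1.65 in 093 (adjusted p = 0.036) was lost when any of the 6 libraries of 093 was left out, and the difference of the responses, -2.96 (adjusted p = 0.028), was lost when any of 8 of the 12 libraries was left out. Without 120 cold library 3 that difference was -4.02 and was called.

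Nitrate reductase 1 (MSTRG.10745) stood at 94.3, 61.9 and 85.3 FPKM in 093 control and 28.2, 29.1 and 31.6 in 093 cold. In 120 it stood at 57.4, 32.1 and 66.1 FPKM in control and 0.890, 0.982 and 7.57 in cold libraries. It fell by 3.99 on the log2 scale in 120 (adjusted p = 1.5e-05) and the response differed by -2.60 (adjusted p = 0.014), or -3.32 without library 3, where the fall in 120 was 4.71. Its fall of 1.39 in 093 (adjusted p = 0.022) was not called with a pseudocount of 0.1, nor without 093 cold library 1, 093 control library 1 or 093 control library 3. Another locus with that description, MSTRG.9448, fell in 120, from 418 to 128 FPKM on average, and averaged 382 and 472 FPKM in 093. The difference of its responses was -2.04 (limma adjusted p = 0.00034). MSTRG.9448 was named after its values had been seen, so its p-value is descriptive. Of 5 tested loci matched by the reductase words, which include cofactor synthesis genes, 0 rose in either variety, 2 fell in 093 and 3 in 120, beside falls of 15.2% and 18.6% over all tested loci. The group's median log2 change was -0.78 in 093 and -1.72 in 120, against 0.43 and 0.18 over all tested loci. The 093 median is the value of a cofactor synthesis gene, MSTRG.5634. The reductases themselves changed in 093 by -1.65 (MSTRG.4507), -1.39 (MSTRG.10745) and 0.32 (MSTRG.9448). Both other scalings gave 4 falls in 093, a count that takes in cofactor synthesis genes.

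Glutamine synthetase fixes ammonium into glutamine, the nitrogen donor of asparagine synthase. Glutamine synthase clone R1 (MSTRG.1147) stood at 12.5, 8.16 and 9.04 FPKM in 093 control and 43.4, 48.9 and 47.0 in 093 cold, and at 26.4, 19.7 and 12.3 in 120 control and 70.5, 62.2 and 53.6 in 120 cold. Every cold library lay above every control library, and the log2 rise was 2.14 in 093 (limma adjusted p = 6.1e-06) and 1.68 in 120 (adjusted p = 4.8e-05). A second locus of that name (MSTRG.5269) rose from 66.7 ± 16.1 to 170.5 ± 13.2 FPKM in 093, by 1.37 (adjusted p = 8.2e-06), and averaged 113 ± 5.99 and 134 ± 6.30 FPKM in 120, a change of 0.24 (adjusted p = 0.18). Its 093 rise became 0.83 and 0.88 with median-ratio scaling and quantile normalization and was then not called. The difference of its responses, -1.12, was also not called with those scalings (-0.80 and -0.81) or without 093 control library 2 (-0.96). Glutamine synthetase 2 (MSTRG.6963), the most abundant of the family, averaged 655 and 559 FPKM in 093 control and cold and 982 and 535 FPKM in 120, with no call. Of 5 tested loci, 3 rose in 093 and 1 in 120, where 33% and 27.8% of all tested loci did, while each other scaling gave 1 rise in 093 and 1 in 120, and median-ratio scaling also 1 fall in 120. Of the 5, 1 had passed the filter on low values through cold libraries alone, and with median-ratio scaling 4 loci were tested.

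Glutamate synthase returns glutamine's amide group to glutamate. Both NADH-dependent loci rose. MSTRG.10395 averaged 12.1 ± 3.64 FPKM in 093 control and 168 ± 13.3 in 093 cold, and in 120 it went from 5.12 ± 2.18 to 79.9 ± 5.54. The log2 change was 3.72 (limma adjusted p = 7e-08) in 093 and 3.78 (adjusted p = 6.4e-08) in 120. MSTRG.428 rose in 093 from 2.81 ± 0.633 to 60.1 ± 6.18 FPKM, and in 120 it went from 2.93 ± 0.434 to 21.5 ± 3.56. Its rise was smaller in 120, 2.51 against 4.01, a difference of -1.50 (SE 0.23, adjusted p = 0.00075). Glutamate synthase 1 (MSTRG.636), far more abundant, averaged 201 and 205 FPKM in 093 and fell from 366 to 121 FPKM in 120 (log2 change -1.60, adjusted p = 6.2e-06). The difference of its responses was -1.63 (adjusted p = 0.00069). MSTRG.636 was named after its values had been seen, so its p-values are descriptive. The word "glutamate synthase" also matched a pair of N-acetylglutamate synthases, enzymes of arginine synthesis. Of the 5 loci, 2 rose in each variety, 1 fell in 093 and 2 fell in 120, with the same counts under each scaling. Among all tested loci 33% rose and 15.2% fell in 093, and the corresponding shares in 120 were 27.8% and 18.6%.

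Glutamate dehydrogenase interconverts glutamate with ammonium and an organic acid. In both varieties 1 of its 2 tested loci rose and 1 fell, too few to set against all tested loci. MSTRG.4983 stood at 5.60, 9.19 and 10.3 FPKM in 093 control and 422, 427 and 469 in 093 cold, and at 9.42, 7.12 and 10.8 in 120 control and 405, 568 and 305 in 120 cold. Its log2 rise of 5.59 in 093 (limma adjusted p = 5.4e-09) and 5.37 in 120 (adjusted p = 7e-09) was the largest in 093 among the loci named here. MSTRG.580 fell in 093 from 20.8 ± 4.07 to 8.40 ± 1.17 FPKM, and in 120 it went from 41.0 ± 8.31 to 6.59 ± 0.703. The difference of its responses was -1.25 (adjusted p = 0.0031), and -0.95 with median-ratio scaling, where it was not called.

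Aspartate, the acceptor of the amide group, comes from oxaloacetate through aspartate aminotransferase, and phosphoenolpyruvate carboxylase refills oxaloacetate. Of 5 tested aminotransferase loci, 4 rose in 093 and 3 in 120, and 0 fell, under each scaling, beside rises of 33% and 27.8% over all tested loci. The group's median log2 change was 2.03 in 093 and 1.96 in 120. Aspartate aminotransferase 3 (MSTRG.10672) rose in 093 from 9.13 ± 1.51 to 41.4 ± 2.38 FPKM, and in 120 it went from 8.08 ± 0.976 to 41.7 ± 3.67, by 2.07 (limma adjusted p = 9.5e-08) and 2.23 (adjusted p = 5.6e-08). MSTRG.1239 was listed at 0 in 4 of the 6 control libraries and at most 0.125 FPKM in the others, and stood at 14.1 to 16.2 FPKM in 093 cold and 5.40 to 9.41 in 120 cold. It passed the filter on low values through the cold libraries alone.

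Of 10 tested carboxylases, 093 had 4 rises and 2 falls, near the shares of all tested loci (33% and 15.2%), and 120 had 1 rise and 2 falls (27.8% and 18.6% of all). Of the 10, 2 had passed the filter on low values through cold libraries alone. Phosphoenolpyruvate carboxylase 3 (MSTRG.13098) rose from 38.0 ± 6.26 to 202 ± 9.57 FPKM in 093 (log2 change 2.39, adjusted p = 7.6e-08) and from 28.2 ± 2.39 to 143 ± 24.0 in 120 (2.29, adjusted p = 1.1e-07). Carboxylase 2 (MSTRG.5876) fell from 153 ± 44.0 to 44.9 ± 1.46 FPKM in 093 (-1.71, adjusted p = 0.0029) and from 63.4 ± 16.0 to 12.1 ± 10.1 in 120 (-2.53, adjusted p = 0.00018, or -3.12 without cold library 3). The aspartate-derived amino acids lysine, threonine and methionine compete for the same precursor. Among 7 tested loci of that branch, 093 had 0 rises and 1 fall, and 120 had 1 rise and 1 fall. For falls that share lies near the 15.2% and 18.6% of all tested loci, and for rises below the 33% and 27.8%. The called loci were a pair of dihydrodipicolinate reductases of lysine synthesis: MSTRG.7705 changed by -2.40 in 093 and -1.55 in 120 (adjusted p = 5.8e-07 and 2.3e-05), and Phvul.010G108900 by 1.47 in 120 (adjusted p = 2e-05) and an uncalled 0.82 in 093.

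Ureides are the other nitrogen-rich transport compounds of common bean, and allantoinase and allantoate amidohydrolase break them down. Allantoate amidohydrolase (MSTRG.11369) fell from 329 ± 48.2 to 98.2 ± 2.52 FPKM in 093 (log2 change -1.72, limma adjusted p = 4.5e-07) and from 407 ± 52.6 to 110.4 ± 1.94 FPKM in 120 (-1.86, adjusted p = 2.5e-07). Of 8 tested ureide loci, 093 had 2 rises and 2 falls, and 120 had 1 rise and 3 falls. Of all tested loci, 33% and 15.2% did so in 093 and 27.8% and 18.6% in 120. Both other scalings gave 1 rise and 5 falls in 093 and 0 rises and 3 falls in 120. The words for xanthine dehydrogenase also matched cofactor synthesis genes (MSTRG.5634, MSTRG.5635 and MSTRG.9908), which had no cold call in the main fit. MSTRG.5634 and MSTRG.5635 are counted with the reductases as well. The counts are thus not of ureide enzymes alone. Of the 8, 1 had passed the filter on low values through cold libraries alone.

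Transporters move nitrogen into and out of leaf cells and veins. Of 12 tested nitrate and ammonium transporters, 093 had 4 rises and 3 falls, and 120 had 3 rises and 4 falls. The rises lie near the 33% and 27.8% of all tested loci. The falls stand beside 15.2% and 18.6% of all tested loci, and their shares are higher, in a group of few loci. Of the 12, 5 had passed the filter on low values through cold libraries alone and 3 through control libraries alone. Nitrate transporter 1:2 (MSTRG.1675) is 1 of the 5. It averaged 0.746 ± 0.250 FPKM in 093 control and 36.4 ± 11.0 in 093 cold, and 0.672 ± 0.237 and 17.2 ± 5.67 in 120. Nitrate transporter 1.5 (MSTRG.4187), which in Arabidopsis loads nitrate into the xylem, fell in 093 from 24.3 ± 10.2 to 2.34 ± 0.452 FPKM, and in 120 it went from 50.6 ± 13.2 to 2.32 ± 0.752 (adjusted p = 3.8e-06 and 2.8e-07). Of 45 tested amino acid transporters, 093 had 14 rises and 10 falls, and 120 had 11 rises and 11 falls, and median-ratio scaling gave 11 rises and 19 falls in 093. The rises again lie near the shares of all tested loci, and the falls somewhat above the 15.2% and 18.6%, which was not tested. Lysine histidine transporter 1 (MSTRG.9381), an amino acid importer in Arabidopsis, averaged 0.201 ± 0.0460 FPKM in 093 control and 23.3 ± 0.953 in 093 cold, and 0.142 ± 0.0694 and 40.6 ± 13.9 in 120. A further transporter family locus (MSTRG.12480) was higher in the cold libraries by 4.25 in 093 and 4.67 in 120 on the log2 scale, and stayed at or under 0.559 FPKM in every control library. Both passed the filter through the cold libraries alone, as did 8 of the 45, so no p is given for them. The 1 locus matched by asparaginyl-tRNA did not pass the filter on low values.

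ASN1 of Arabidopsis belongs to the genes of dark-treated and ageing leaves and responds to SnRK1, a kinase of energy shortage, and to bZIP factors that act with it. Of 17 tested loci matched by dark-inducible or senescence words, 093 had 9 rises and 3 falls, and 120 had 6 rises and 3 falls. Over all tested loci 33% rose and 15.2% fell in 093, and 27.8% and 18.6% did in 120, so the counts in 120 lie near those shares. The filter on low values was passed by 6 of the 17 through cold libraries alone. Senescence-associated gene 101 (MSTRG.4676) stood at 5.42, 4.55 and 9.82 FPKM in 093 control and 91.4, 92.0 and 95.4 in 093 cold, and at 4.04, 4.44 and 3.96 in 120 control and 119, 105 and 85.0 in 120 cold. Cold libraries were higher throughout, by 3.69 in 093 (limma adjusted p = 3.5e-08) and 4.32 in 120 (adjusted p = 1.1e-08) on the log2 scale. A senescence/dehydration-associated locus (MSTRG.12542), 1 of those 6, was higher in the cold libraries by 3.71 in 093 and 5.20 in 120, and 093 control library 3, at 3.11 FPKM, stood above the other control libraries. Other members went the other way. A senescence-associated family locus (MSTRG.9731) averaged 71.2 and 5.85 FPKM in 093 control and cold and 134 and 9.55 in 120. Senescence-related gene 3 (MSTRG.483) averaged 195 and 40.2 FPKM in 093 control and cold and 393 and 23.9 in 120. MSTRG.9731 and MSTRG.483 were looked up after their values had been seen and are given without a test.

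SNF1 kinase homolog 10, the catalytic subunit of SnRK1 in Arabidopsis, was the description of 3 tested loci. MSTRG.8888 stood at 27.3, 36.6 and 20.7 FPKM in 093 control and under 0.5 FPKM in 093 cold. In 120 it stood at 11.0, 0.931 and 17.6 FPKM in control and at 0, 0.212 and 0 in cold libraries. Cold minus control was -4.38 in 093 and -2.83 in 120 on the log2 scale, and the locus passed the filter through the control libraries alone. The more abundant MSTRG.8887 averaged 39.4 and 33.0 FPKM in 093 control and cold and 50.4 and 40.2 FPKM in 120, with no call. MSTRG.4736, named like MSTRG.8887 after its values had been seen, rose in 093 from 8.76 to 19.2 FPKM on average (limma adjusted p = 0.00014, descriptive). That call was lost with both other scalings (0.55 and 0.59) and without 093 cold library 3 or 093 control library 2 (0.99 each). The table lists MSTRG.8887 and MSTRG.8888 under neighbouring gene names, and reads matching both cannot be assigned from it. Of 8 tested loci matched by SNF1, 093 had 2 rises and 3 falls, and 120 had 1 rise and 3 falls, and both other scalings left 0 rises. The shares over every locus of the fit were, for rises, 33% (093) and 27.8% (120), and, for falls, 15.2% (093) and 18.6% (120). The 8 include SNF1-related kinase 2.3 (MSTRG.1438), an abscisic acid signalling kinase in Arabidopsis, which fell in 093 from 38.0 ± 2.71 to 4.31 ± 0.445 FPKM, and in 120 it went from 32.1 ± 3.28 to 3.68 ± 0.933 (adjusted p = 1.7e-08 and 1.9e-08). Another locus with that description, MSTRG.4268, went the other way. It averaged 33.5 and 74.8 FPKM in 093 control and cold and 32.9 and 66.3 in 120. MSTRG.4268 was looked up after its values had been seen and is given without a test.

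Of 23 tested bZIP factors, 093 had 9 rises and 2 falls, and 120 had 5 rises and 3 falls, beside 33% and 15.2% of all tested loci in 093 and 27.8% and 18.6% in 120. Both other scalings gave 6 rises and 4 falls in 093, and quantile normalization gave 3 rises and 4 falls in 120. Of the 23, 3 had passed the filter on low values through cold libraries alone and 5 through control libraries alone. The counts thus describe the tested members and support no direction. MSTRG.6689 fell by 1.98 in 093 and 2.38 in 120 on the log2 scale (adjusted p = 0.00014 and 3.1e-05). For Phvul.001G140100, which passed the filter through the cold libraries alone, the value was 0 in each of the 6 control libraries. Its 093 cold libraries had 4.61, 3.94 and 5.26 FPKM and its 120 cold libraries 2.68, 3.88 and 1.33.

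**Figure D4:**
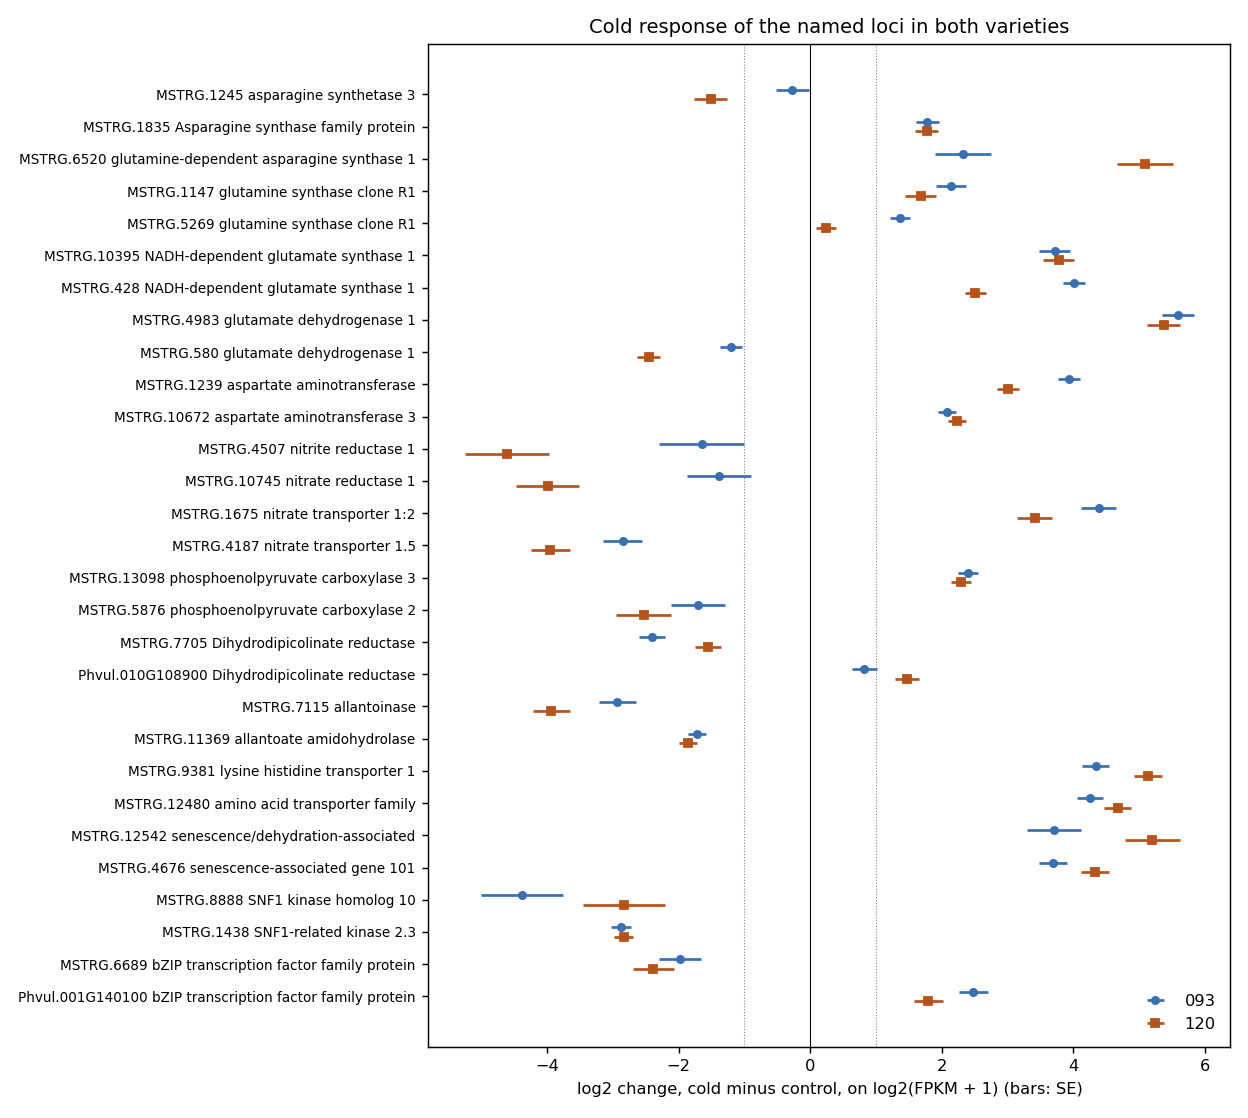
Log2 change under cold on log2(FPKM + 1) for the tested loci named from the lists, with 093 as circles, 120 as squares and bars for the model's SE; dotted lines mark a change of 1 in either direction. Glutamate dehydrogenase 1 (MSTRG.4983) lies farthest right in 093 at 5.59, and nitrite reductase 1 (MSTRG.4507) farthest left in 120 at -4.61.

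The described loci whose profile was most like that of MSTRG.9850 were found by Pearson's r on log2(FPKM + 1) over the 12 libraries. This is a description: the libraries fall into 4 groups with a large cold difference, and 1157 of 14715 loci reached 0.9 and 1667 lay at -0.9 or lower. Phytochrome A (MSTRG.8306), a photoreceptor for far-red light, had the highest r, 0.994. It stood at 19.7, 19.3 and 20.8 FPKM in 093 control, 9.36, 9.92 and 9.69 in 093 cold, 23.4, 22.0 and 24.8 in 120 control and 4.48, 4.12 and 7.31 in 120 cold. Its group order matched MSTRG.9850 and 120 cold library 3 was again the highest of its group, over a much smaller range.

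The rest of the 10 had r between 0.985 and 0.992. A pyridoxamine 5'-phosphate oxidase family locus (MSTRG.3608) averaged 78.7 and 16.7 FPKM in 093 control and cold and 135 and 9.36 in 120. An alkenal reductase (MSTRG.11701) averaged 33.2 and 6.42 FPKM in 093 control and cold and 48.3 and 3.43 in 120, and a cytochrome P450 (MSTRG.1202) 19.7, 4.51, 29.0 and 1.56 in the same order. Allantoinase (MSTRG.7115), the ureide enzyme, averaged 73.8 and 8.81 FPKM in 093 control and cold and 88.9 and 5.40 in 120, with r = 0.988; it was picked here for its likeness and so carries no test. The others were cyclic nucleotide-gated channel 17 (MSTRG.11173), BEL1-like homeodomain 4 (MSTRG.1453), a 2-oxoglutarate oxygenase (MSTRG.1931), serine carboxypeptidase-like 29 (MSTRG.11130) and a homeodomain-like protein (MSTRG.7972). Of the 10, 9 had the same order of group means as MSTRG.9850, the exception being MSTRG.1931. In all 10, as in MSTRG.9850, 120 cold library 3 was the cold library nearest to the 120 control, which the choice by likeness over the libraries largely fixes. With median-ratio scaling 6 of these 10 were still among the 10 most alike, and with quantile normalization 3.

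**Figure D5:**
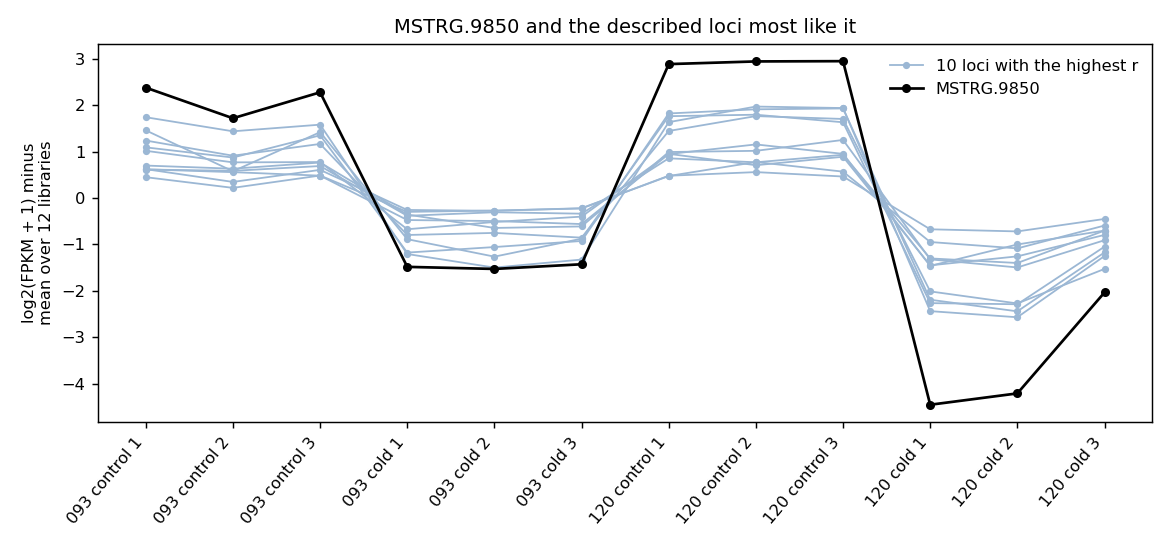
Log2(FPKM + 1) minus each locus's mean over the 12 libraries, for MSTRG.9850 (black) and the 10 described loci with the highest r (blue); lines only join the values of 1 locus. All run high in control and low in cold libraries, MSTRG.9850 over the widest range, and 120 cold library 3 lies above 120 cold libraries 1 and 2.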

How the data were processed

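The table deposited by the authors gives FPKM per locus and library, per the file headers. The submitters' processing notes name cutadapt 1.9, HISAT2 2.0.4 and StringTie 1.3.4d, and DESeq2 and edgeR without version or role, neither used here. The genome build is not given in the sources used here. Read counts were not analysed here, so depth is unknown and no counting interval is given. Loci that reached 1 FPKM in 3 or more of 12 libraries were tested (14716 of 22542). A linear model on log2(FPKM + 1) with 4 group means was fitted to all 12 libraries (R 4.3.3, limma 3.58.1, variance trend), with 5 contrasts and two-sided p-values adjusted by Benjamini-Hochberg within each. A pseudocount understates changes of low loci. The model was tested on simulated data. A locus is said to rise or fall where it was called (adjusted p under 0.05, log2 change of at least 1). Named loci are MSTRG.9850, its description matches, the 2 called members of each list with the largest mean absolute change over both cold contrasts, and the 10 described loci most alike. Any other locus was named after its values were seen. The locus and the lists were chosen with earlier results of these data known. Alternatives were a pseudocount of 0.1, 2 other scalings, no filter, a replicate block and leaving out each library.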

Additional observations from a re-analysis of the deposited data

Results flagged for a closer look

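For 7 of the 29 tested loci named by rule the cold response itself differed between the varieties (120 minus 093, log2). Limma's test of the difference was used, with an adjusted p under 0.05 and a size of at least 1. Of all tested loci, 19.6% passed that test. Most of the 29 were picked for the largest cold changes in these same data. The filter on low values was passed by 6 of the 29 through cold libraries alone and by 1 through control libraries alone. The count and the share of all loci are thus not like for like. MSTRG.6520, the asparagine synthase 1 locus that rose under cold, had a difference of 2.77, so it rose more in 120. Asparagine synthetase 3 (MSTRG.1245) had -1.24, a call lost with median-ratio scaling and without 120 cold library 2 (-0.98 each). Glutamine synthase clone R1 (MSTRG.5269) had -1.12, a call lost with median-ratio scaling (-0.80), quantile normalization (-0.81) and without 093 control library 2 (-0.96). NADH-dependent glutamate synthase 1 (MSTRG.428) had -1.50. Glutamate dehydrogenase 1 (MSTRG.580) had -1.25, a call lost with median-ratio scaling (-0.95). Nitrite reductase 1 (MSTRG.4507) had -2.96, a call lost with no filter and when any of 8 of the 12 libraries was left out. Nitrate reductase 1 (MSTRG.10745) had -2.60. Of 5 further list members named after their values were seen and given with their calls, glutamate synthase 1 (MSTRG.636) had -1.63 and a nitrate reductase 1 locus (MSTRG.9448) had -2.04. The values of MSTRG.4507 and MSTRG.10745 in 120 cold library 3 lay nearer to the control than those of libraries 1 and 2.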

How the results depend on the processing

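The direction of every value given for MSTRG.9850 was kept under each alternative. Its cold difference in 093 was -4.15 with median-ratio scaling and -3.25 with quantile normalization (-3.60 as reported), and 120 minus 093 without cold was 1.08 with quantile normalization (0.80); the cause was not tested. Leaving out 1 library gave -3.81 to -3.48 in 093, -7.26 to -6.05 in 120, -3.65 to -2.44 for the difference of responses, 0.60 to 0.93 between varieties without cold and -2.85 to -1.64 under cold. Loci called then ranged over 6878 to 7249 in 093, 6653 to 6830 in 120, 2455 to 3154 for the difference, 1360 to 1658 without cold and 1643 to 2125 under cold. The list gave 53 to 59, 52 to 59, 24 to 38, 10 to 16 and 21 to 32. With a pseudocount of 0.1 the list gave 23 calls between varieties without cold (15 as reported). Replicate numbers did not pair libraries: deviations of same-numbered libraries correlated between -0.0800 and 0.0490. With the replicate block, 7098, 6821, 2800, 1572 and 1854 loci were called, and 1 of 81 named calls was lost, MSTRG.8888 between varieties without cold. Of the 81, 9 were lost with median-ratio scaling, 6 with quantile normalization, 4 with no filter, 3 with a pseudocount of 0.1, and 49 of 972 when single libraries were left out, the lost calls keeping their direction. Unknown depth limits statements on loci under 1 FPKM.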

Other observations

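GO terms give asparagine synthase activity to 7 further loci, all described as aluminium induced protein with YGL and LRDR motifs; they were looked up after their values had been seen and carry no test. Their levels did not run together. MSTRG.5831 averaged 71.8 ± 11.9 FPKM in 093 control, 5.06 ± 0.0786 in 093 cold, 27.8 ± 6.32 in 120 control and 2.85 ± 0.653 in 120 cold, and MSTRG.6945 averaged 352 ± 93.5, 80.6 ± 0.390, 316 ± 44.4 and 42.2 ± 10.8 in that order. MSTRG.7113 averaged 83.8, 16.4, 73.2 and 14.1 FPKM in the same order, and MSTRG.7134 63.5, 36.2, 38.4 and 12.6. MSTRG.3462 averaged 126 and 122 FPKM in 093 control and cold and 205 and 101 in 120. Each of these loci was lower on average in 120 cold than in 120 control. MSTRG.7689 was higher in every cold library of both varieties, at 20.3 ± 5.15, 54.0 ± 3.53, 18.6 ± 0.847 and 64.7 ± 2.71 FPKM. MSTRG.7140 stood at 210.0, 259.7 and 392 FPKM in 093 control, 184, 202 and 179 in 093 cold, 38.4, 8.35 and 47.6 in 120 control and 204, 264 and 67.6 in 120 cold. In that locus the cold libraries were lower in 093 and higher in 120.

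Among loci with the profile most opposite to MSTRG.9850, also looked up after their values were seen, was ammonium transporter 2 (MSTRG.9140), with r = -0.990. It stood at 0.351, 0.0841 and 0.149 FPKM in 093 control, 6.72, 5.56 and 7.05 in 093 cold, 0.0610, 0.0259 and 0.0451 in 120 control and 22.5, 19.6 and 10.4 in 120 cold. The lowest of its 120 cold values was in library 3, which the choice of an opposite profile largely fixes.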
